A study of Mus musculus with 6 samples.

Results

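The genes that divide and join mitochondria were examined in primary mouse embryonic fibroblasts (MEFs, connective tissue cells cultured directly from embryos) that were WT or carried an inducible knockout (KO) of Kansl1. They are Dnm1l, Fis1, Mff, Mief1, Mief2, Mfn1, Mfn2, Opa1, Oma1 and Mtfr1. These genes were chosen by name from their known roles, with earlier results of these data known. All 10 were among the 26898 genes of the expression table and passed the filter on low expression that left 14799 genes for testing. The WT group carried Kansl1 fl/fl, in which both alleles are flanked by recombination sites. The KO group carried Kansl1 fl/fl/CAG-cre, in which the broadly active CAG promoter drives a tamoxifen-inducible Cre. Both groups were C57BL/6 cells at passage 3 and both received 1 μM tamoxifen for 48 h. There were 3 samples in each of the 2 groups, titled WT 4, 5 and 8 and KO 3, 7 and 10. No cells with Cre and an intact Kansl1 gene were analysed here, so loss of Kansl1 and presence of Cre cannot be told apart. The methods of the study count mice per genotype, whereas the labels do not say whether the samples came from separate embryos; if they did not, the p-values measure only the spread between these samples, which may be technical.

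Mitochondria form a network that is cut by fission and rebuilt by fusion. In fission, the GTPase DRP1, encoded by Dnm1l, is recruited from the cytosol by adaptors in the outer membrane and assembles into a ring that constricts the organelle. In fusion, mitofusins join the outer membranes of neighbouring mitochondria and OPA1 joins the inner membranes and keeps the cristae, the folds of the inner membrane, narrow. Proteases that cut OPA1, among them OMA1, set how much of it can work in fusion. KANSL1 is a scaffold of the NSL complex, which acetylates histone H4 at gene promoters.

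Expression was deposited as TPM (reads per unit of gene length, brought to 1 common total for all samples). The length is that of all annotated exons of a gene merged, 1714 bases for Fis1 and 9757 for Mff. Single transcripts can be shorter, by amounts that differ between genes, so levels of different genes can be set side by side only roughly. Reads assigned to genes, recovered from the steps of the TPM values, numbered 22812595 to 24263082 for WT. For KO they ran from 17655495 (KO 3) to 27718259 (KO 7). One short RNA, the 57-base Gm23935, held 15.5% of TPM in WT 4, 18.4% in WT 5 and 24.3% in WT 8, and 25.6% in KO 3, 15.5% in KO 7 and 19.9% in KO 10, which lowers every other TPM value in the samples where it is high. The targeted gene was lower in the KO samples. Kansl1 (chr11:104333229-104468861, minus strand, mm10) was at 24.4 to 28.5 TPM in the WT samples and 13.7 to 15.8 TPM in the KO samples, a KO mean of 55.1% of the WT mean (limma, adjusted p = 0.000859), so that KO cells still held Kansl1 RNA. Summed over the listed fibroblast markers, the level was 10270 to 14850 TPM in WT and 11000 to 14440 TPM in KO. Not all of them were high: Dcn had means of 4.5 TPM in WT and 6.7 TPM in KO, and Pdgfra 9.2 and 8.2 TPM. The epithelial markers Epcam and Cdh1, the endothelial markers Pecam1, Cdh5 and Tek and the muscle markers Myod1, Myog and Ttn stayed under 1 TPM in every sample, as did the neuronal markers Map2 and Elavl3. The other listed epithelial, endothelial, neuronal and muscle markers were not called. Of these, the epithelial Krt8 and Krt18 and the endothelial Kdr had every KO sample above every WT sample, with means of 1.45, 41.25 and 1.01 TPM in WT and 2.70, 53.5 and 1.90 TPM in KO cells, and the neuronal Tubb3 and Stmn2 and the muscle marker Des overlapped between groups. The 4 erythroid markers were looked for and were not found under their names among the genes of the expression table.

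Of the 10 genes, 3 fell in KO cells and 0 rose. With any 1 of the 6 samples left out, with no filter on low values, or with no variance trend, only Opa1 of the 3 was called. They were Opa1, the fusion GTPase of the inner membrane, at 48.1% of its WT level, Mief2, an adaptor that recruits DRP1, at 60.8%, and Mfn2, a mitofusin, at 63.6%. Calls were made with limma on log2(TPM + 1) at the study's own cut-offs: the p-value, adjusted by the Benjamini-Hochberg method over all 14799 genes, had to be under 0.005, and the log2 fold change had to lie beyond 0.5 in either direction. By the thresholds 9.03% of all tested genes were lower and 1.64% were higher. At an adjusted p under 0.05 with a negative fold change there were 6 of the 10 genes, against 20.7% of all tested genes, and the same number had an unadjusted p under 0.05 (39.4% of all tested genes in either direction), all lower in KO cells. Every KO sample lay below every WT sample for 7 of the 10 genes, against 29.9% of all tested genes. The median log2 fold change was -0.32 over the 10 genes and -0.07 over all tested genes. The 3 genes whose groups overlapped were Mff, Mief1 and Mtfr1. All 10 fold changes were negative in TPM, against 57.4% of all tested genes, but those of Mief1 and Mtfr1 turned positive when libraries were scaled by the median of ratios, so no direction is given for these 2 genes.

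**Figure D1:**
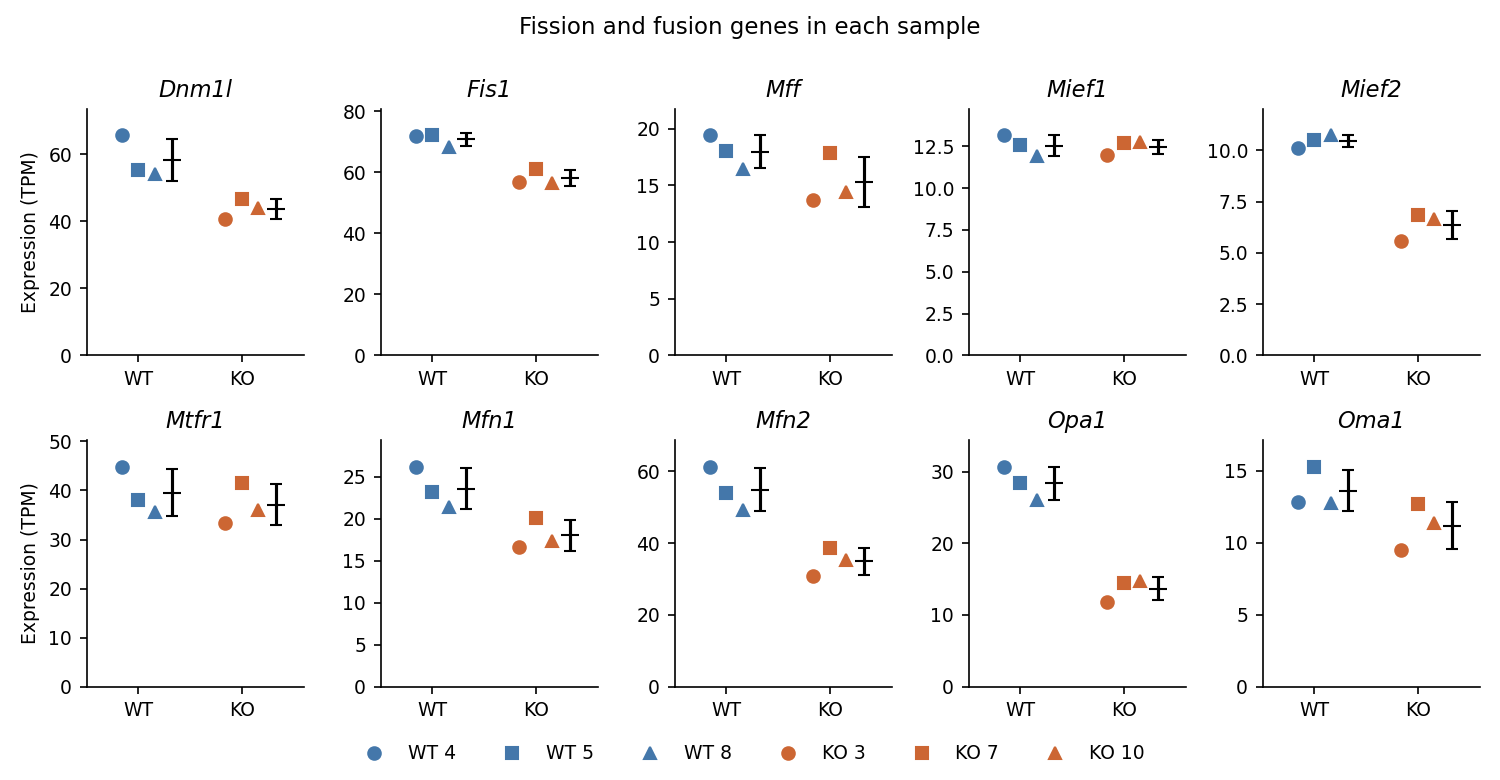
Expression of the 10 genes (y axis, TPM, each starting at 0) in the 3 WT samples (blue) and the 3 KO samples (orange), with 1 point per sample and a black bar for the group mean ± SD. The KO points of Opa1, Mief2 and Mfn2 lie well below all WT points, whereas those of Mff, Mief1 and Mtfr1 overlap with them.

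In WT cells, the order of mean levels was Fis1 (70.7 TPM), Dnm1l (58.3 TPM), Mfn2 (54.9 TPM), Mtfr1 (39.5 TPM), Opa1 (28.4 TPM), Mfn1 (23.6 TPM), Mff (18.0 TPM), Oma1 (13.6 TPM), Mief1 (12.5 TPM) and Mief2 (10.5 TPM). Neighbours in this order whose WT samples overlapped were Dnm1l with Mfn2, Opa1 with Mfn1, and Oma1 with Mief1. In KO cells the order was Fis1, Dnm1l, Mtfr1, Mfn2, Mfn1, Mff, Opa1, Mief1, Oma1 and Mief2, and neighbours were separate only at Fis1 and Dnm1l, Mfn2 and Mfn1, and Oma1 and Mief2. Opa1 was above Mfn1 and Mff in every WT sample, below Mfn1 in every KO sample, and below Mff in KO 3 and KO 7 but slightly above it in KO 10. The lowest of the 10 genes in every sample was Mief2.

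The fusion genes were taken first. Opa1 (ENSMUSG00000038084.16, chr16:29579334-29654884, plus strand) was at 30.7 TPM in WT 4, 28.4 TPM in WT 5 and 26.1 TPM in WT 8, and at 11.85 TPM in KO 3, 14.4 TPM in KO 7 and 14.7 TPM in KO 10. The highest KO sample was thus far below the lowest WT sample. The mean went from 28.4 ± 2.30 to 13.7 ± 1.57 TPM (SD, n = 3 each), a log2 fold change of -1.01 (SE 0.1201, 95% interval -1.28 to -0.74, limma adjusted p = 0.000527). Only 4.42% of tested genes had a lower fold change. Between 1947 and 1963 reads lay behind each WT value and between 679 and 1098 behind each KO value.

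Mfn1 and Mfn2 encode the mitofusins, related GTPases that tether and join outer membranes, with MFN2 also known for contacts between mitochondria and the endoplasmic reticulum. Mfn2 (ENSMUSG00000029020.13, chr4:147873599-147904704, minus strand) was at 61.3, 54.1 and 49.3 TPM in WT 4, 5 and 8 and at 30.9, 38.5 and 35.3 TPM in KO 3, 7 and 10. No KO sample reached the lowest WT sample. Its mean went from 54.9 ± 6.05 to 34.9 ± 3.82 TPM, a log2 fold change of -0.64 (SE 0.121, 95% interval -0.91 to -0.37, limma adjusted p = 0.00434). This value is just inside the threshold, and with any 1 of the 6 samples left out the adjusted p was between 0.00594 and 0.0157 and the call was lost, with a log2 fold change of -0.71 to -0.56. It was also lost with no filter on low values (adjusted p = 0.0157) and with no variance trend (0.0111). Mfn1 (chr3:32529465-32579239, plus strand) was at 26.2, 23.2 and 21.4 TPM in the WT samples and at 16.7, 20.1 and 17.3 TPM in the KO samples. Its groups did not overlap either, but KO 7 came close to WT 8. The mean of Mfn1 was 23.6 ± 2.43 TPM in WT and 18.0 ± 1.81 TPM in KO, with a log2 fold change of -0.37 (95% interval -0.64 to -0.10, limma adjusted p = 0.0454), which did not pass the thresholds.

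The ratio of the mitofusins within a sample does not depend on how libraries are scaled. Mfn2 divided by Mfn1, in TPM, was 2.34, 2.34 and 2.31 in WT 4, 5 and 8, and 1.855, 1.92 and 2.04 in KO 3, 7 and 10. The ratio was nearly the same in the WT samples and lower in every KO sample (2.33 ± 0.0184 and 1.94 ± 0.0930, SD, n = 3 each), so Mfn2 was lower relative to Mfn1 in KO cells. It is given as a description with no test.

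Oma1 (chr4:103313812-103371868, plus strand) encodes a stress-activated protease of the inner membrane that cuts OPA1 into forms that no longer fuse. It was at 12.8, 15.3 and 12.7 TPM in the WT samples and at 9.49, 12.7 and 11.3 TPM in the KO samples. KO 7, at 12.71 TPM, was all but level with WT 8, at 12.74 TPM. The means of 13.6 ± 1.43 and 11.2 ± 1.61 TPM gave a log2 fold change of -0.27 (95% interval -0.57 to 0.035, limma adjusted p = 0.174). Without KO 3 it was -0.16, and with median-of-ratios scaling it was -0.17 and the groups overlapped. Only 148 to 287 reads per sample lay behind these values.

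Among the fission genes, Mief2 was the only one called. MIEF2 and MIEF1 (also named MiD49 and MiD51) are outer membrane proteins that bind DRP1 and bring it to the organelle. Mief2 (ENSMUSG00000018599.5, chr11:60728398-60732951, plus strand) was at 10.1, 10.5 and 10.7 TPM in WT 4, 5 and 8 and at 5.57, 6.84 and 6.64 TPM in KO 3, 7 and 10. In TPM the WT samples lay close together, and all KO samples lay well below them. Their coefficient of variation in WT was 2.8% in TPM, 9.4% with median-of-ratios scaling and 8.4% without Gm23935. The mean went from 10.5 ± 0.295 to 6.35 ± 0.684 TPM, a log2 fold change of -0.64 (SE 0.1201, 95% interval -0.91 to -0.37, limma adjusted p = 0.00404). This gene had few reads, 223 to 276 per WT sample and 110 to 180 per KO sample. Its call, too, was lost with any 1 of the 6 samples left out, where the adjusted p was 0.00779 to 0.0185 and the log2 fold change -0.69 to -0.56, and with no filter (0.0155) or no variance trend (0.00578).

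Mief1 (chr15:80234018-80253371, plus strand) was not called. It was at 13.1, 12.6 and 11.9 TPM in the WT samples and at 12.0, 12.7 and 12.7 TPM in the KO samples, and the groups overlapped fully. The log2 fold change was -0.01 with a 95% interval of -0.24 to 0.229 (limma adjusted p = 0.973), so a fall as large as that of Mief2 lies outside the interval. The ratio of Mief2 to Mief1 was 0.771, 0.836 and 0.900 in WT 4, 5 and 8 and 0.464, 0.539 and 0.521 in KO 3, 7 and 10. The ratio was 0.836 ± 0.0645 in WT and 0.508 ± 0.0391 in KO cells (SD, n = 3 each), and no KO sample came near the WT samples. No stretch of 50 bases was shared between transcripts of Mief1 and Mief2 or of Mfn1 and Mfn2, and Opa1, Mfn2 and Mief2 shared none with any other gene, so reads of that length could not be swapped between them. Mief1 shared 1.99% of its stretches with AC140267.1, a gene on the same strand.

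**Figure D2:**
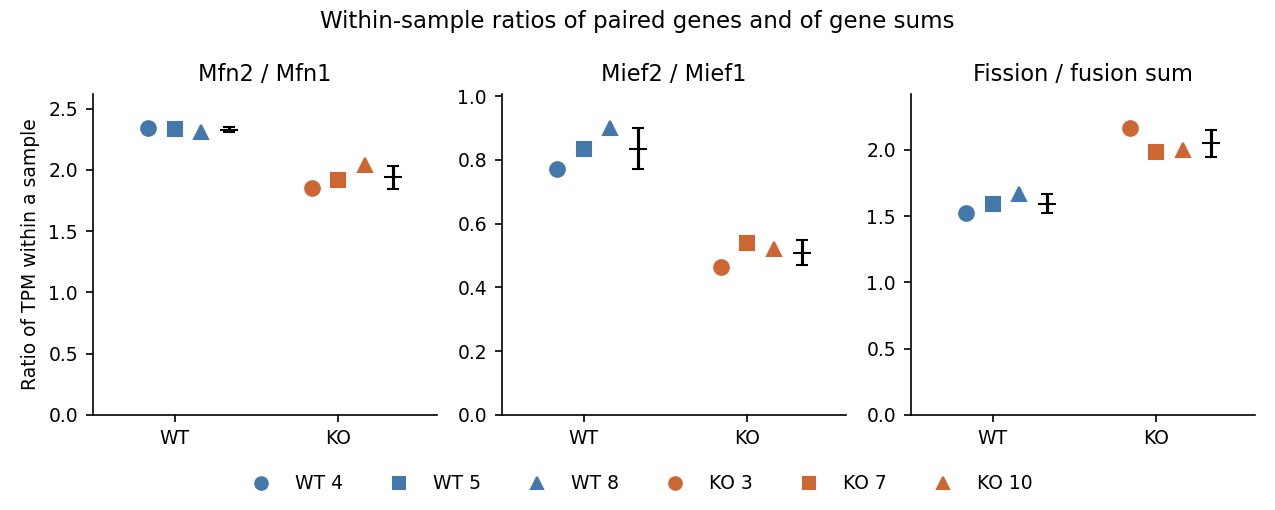
Ratios of TPM within each sample (y axis, starting at 0) of Mfn2 to Mfn1, of Mief2 to Mief1, and of the summed fission genes Dnm1l, Fis1, Mff, Mief1 and Mief2 (without Mtfr1) to the summed fusion genes Mfn1, Mfn2 and Opa1 (without Oma1), with 1 point per sample (WT blue, KO orange) and a black bar for the mean ± SD. Both gene ratios were lower in all KO samples, and the ratio of the sums was higher in all KO samples.

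Dnm1l (chr16:16312230-16358959, minus strand) encodes DRP1 itself. It was at 65.6, 55.2 and 54.0 TPM in WT 4, 5 and 8 and at 40.8, 46.5 and 43.9 TPM in KO 3, 7 and 10. No KO sample reached the WT samples. The mean was 58.3 ± 6.38 TPM in WT and 43.7 ± 2.88 TPM in KO, 75.1% of WT, and the log2 fold change of -0.40 (95% interval -0.65 to -0.16, limma adjusted p = 0.0236) missed both thresholds. Between 1543 and 2766 reads lay behind each value, so this gene was among the most deeply read of the 10. An antisense RNA, Gm49521, covers 243 bases or 4.67% of its exons, and whether strand was used in counting is not given in the sources used here. Of the 50-base stretches of Dnm1l, 4.9% were shared with other genes, among them Gm49521 and Gm13719.

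Fis1 and Mff encode tail-anchored outer membrane proteins, of which MFF is the main DRP1 receptor in many mammalian cells. Fis1 (chr5:136953275-136966234, plus strand) was at 71.9, 72.0 and 68.2 TPM in the WT samples and at 56.7, 60.9 and 56.6 TPM in the KO samples. The groups were separate and each was narrow, 70.7 ± 2.15 and 58.1 ± 2.47 TPM, with a log2 fold change of -0.28 (95% interval -0.48 to -0.08, limma adjusted p = 0.0460) that did not pass the thresholds. Mff (chr1:82724890-82752394, plus strand) was at 19.4, 18.0 and 16.5 TPM in the WT samples and at 13.7, 17.8 and 14.5 TPM in the KO samples. Here KO 7 lay within the WT samples, and the log2 fold change of -0.22 (95% interval -0.51 to 0.065, limma adjusted p = 0.230) was not called.

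Mtfr1 (chr3:19187327-19220817, plus strand) encodes a mitochondrial protein that promotes fission when overproduced. It was at 44.9, 38.1 and 35.6 TPM in the WT samples and at 33.4, 41.6 and 36.1 TPM in the KO samples. The groups were interleaved, and the log2 fold change was -0.09 (95% interval -0.37 to 0.189, limma adjusted p = 0.627).

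By side of the process, 1 of 6 fission genes (Dnm1l, Fis1, Mff, Mief1, Mief2 and Mtfr1) was called lower. Of the 4 genes grouped under fusion (Mfn1, Mfn2, Opa1 and Oma1), 2 were. The median log2 fold changes were -0.25 and -0.50, and 9.03% of all tested genes were lower. With any 1 sample left out the calls were 0 of 6 and 1 of 4. Oma1 counts in the second group although its protease cuts OPA1 into forms that no longer fuse, so that median is not one of fusion proteins alone. Summed over the genes of DRP1 and its 4 adaptors, the level was 169.9 ± 9.54 TPM in WT and 136 ± 8.16 TPM in KO cells. Summed over the 3 fusion GTPases Mfn1, Mfn2 and Opa1, it was 106.9 ± 10.8 TPM in WT and 66.6 ± 6.80 TPM in KO cells. The first sum divided by the second was 1.525, 1.59 and 1.67 in WT 4, 5 and 8 and 2.17, 1.98 and 2.00 in KO 3, 7 and 10. Every KO sample was above every WT sample (1.595 ± 0.0713 and 2.05 ± 0.102, SD, n = 3 each). This ratio of sums was chosen after the values had been seen and is a description with no test, and transcripts do not give the amount of protein or the processing of OPA1.

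**Figure D3:**
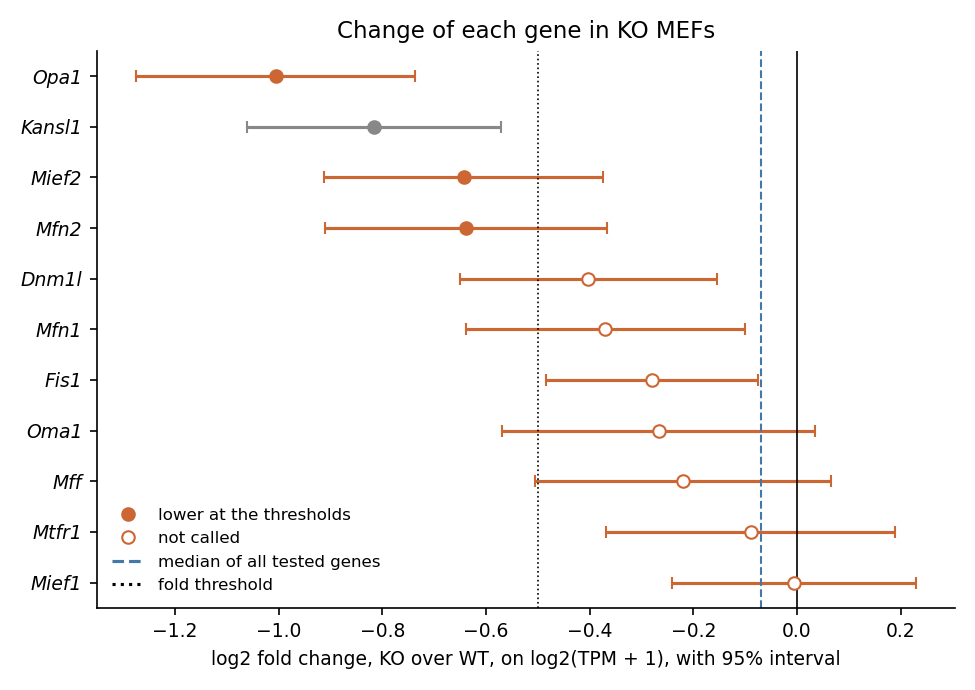
Log2 fold change of KO over WT (x axis, on log2(TPM + 1)) with its 95% interval for each gene, ordered by size, with the targeted gene Kansl1 in grey. Filled points passed the thresholds, open points did not, the dotted line is the fold threshold at -0.5 and the dashed line the median of all tested genes at -0.07. Opa1 lies furthest to the left and its whole interval is below the fold threshold.

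The 10 genes tended to be high or low together within a group. WT 4 was the highest WT sample for 7 of them and WT 8 the lowest for 9, while KO 7 was the highest KO sample for 8 and KO 3 the lowest for 9. The same order held for many other genes: WT 8 was lowest for 62.1% and KO 3 for 76.2% of all tested genes. Gm23935 took its largest shares of TPM in those 2 samples. With Gm23935 left out of the total, the median coefficient of variation of the 10 genes went from 9.24% to 5.59% among WT samples and from 10.9% to 5.06% among KO samples, and the groups did not overlap for 8 of the 10 genes, against 34.6% of all tested genes with KO below WT. Although the WT spread of Mief2 widened with either change, median-of-ratios scaling narrowed the median alike, to 5.56% and 5.12%. With it, 6 genes did not overlap, against 29.1% of all tested genes. On that scale the median fold change of all tested genes moved from -0.07 to 0.02, and Opa1, Mfn2 and Mief2 stood at 51.7%, 68.3% and 65.0% of WT. The log2 fold changes of Fis1 and Mff became -0.18 and -0.12. These 3 genes were called on each of these scales.

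**Figure D4:**
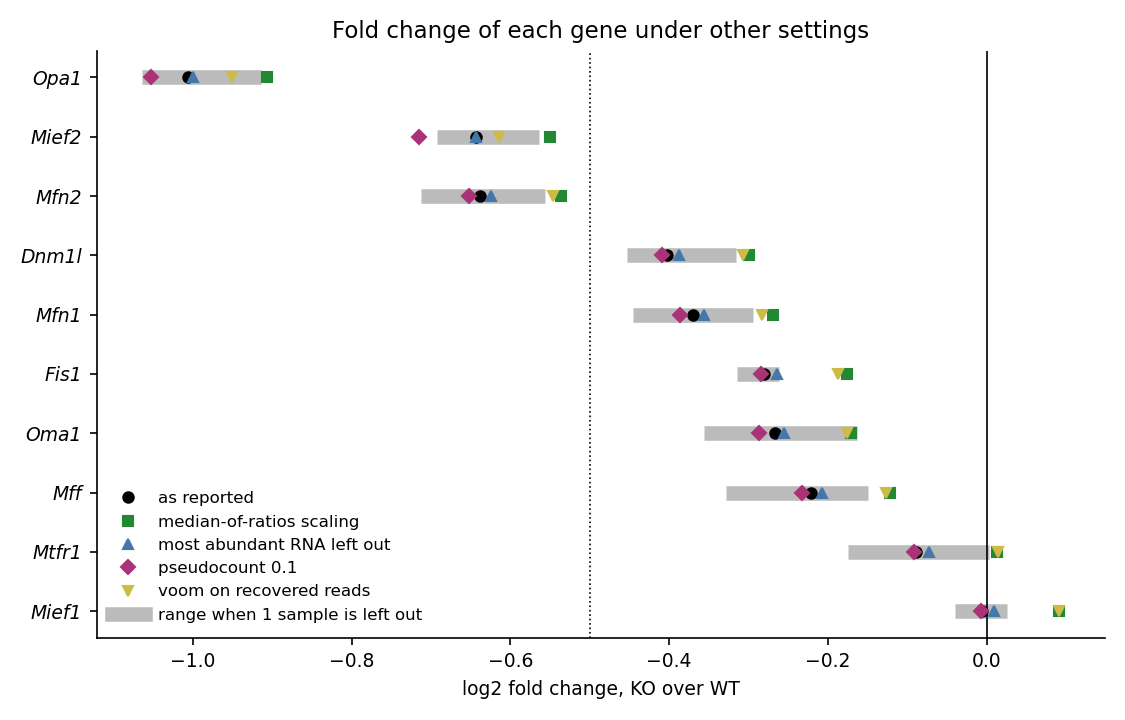
Log2 fold change of KO over WT (x axis) of each gene as reported (black circle), with median-of-ratios scaling, without the most abundant RNA, with a pseudocount of 0.1 and with voom on recovered reads, over a grey bar for the range when 1 sample is left out. The order of the genes changed little, all values of Opa1, Mief2 and Mfn2 stayed below the fold threshold at -0.5 (dotted line), and those of Mief1 and Mtfr1 straddled 0.

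The promoters of the 3 called genes are shown as a description. Each is the 250 bases before the most upstream RefSeq start of the gene (RefSeq, GRCm38.p6), written 5′ to 3′ on the strand of the gene. Capitals mark letter matches to 6 motifs searched on both strands: NRF1 (GCGCA, any base, GCGC), YY1 (AA, any base, ATGGCG, any base, C), ETS (CCGGAAGT), SP1 (GGGCGG), CRE (TGACGTCA) and the E-box (CACGTG). The windows are at chr16:29579084-29579333 (plus strand) for Opa1, chr4:147904910-147905159 (minus strand) for Mfn2 and chr11:60728148-60728397 (plus strand) for Mief2. For Opa1 and Mief2 the RefSeq start was also the GENCODE start. That of Mfn2 was 205 bases from it, and the bases checked just after it matched no GENCODE transcript of Mfn2. The same check failed for Dnm1l (72 bases away) and Oma1 (34 bases away), so these 3 windows may not be the promoters used.
Opa1: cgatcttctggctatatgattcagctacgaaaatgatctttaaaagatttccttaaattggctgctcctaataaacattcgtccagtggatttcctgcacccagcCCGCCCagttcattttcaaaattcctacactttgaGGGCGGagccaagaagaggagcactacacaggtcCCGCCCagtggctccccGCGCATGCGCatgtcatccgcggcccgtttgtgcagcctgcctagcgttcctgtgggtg
Mfn2: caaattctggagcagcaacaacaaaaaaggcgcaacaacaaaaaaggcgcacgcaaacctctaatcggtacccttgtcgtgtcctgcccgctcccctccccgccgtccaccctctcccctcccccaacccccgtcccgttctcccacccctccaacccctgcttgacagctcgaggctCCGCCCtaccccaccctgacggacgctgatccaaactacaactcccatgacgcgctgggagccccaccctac
Mief2: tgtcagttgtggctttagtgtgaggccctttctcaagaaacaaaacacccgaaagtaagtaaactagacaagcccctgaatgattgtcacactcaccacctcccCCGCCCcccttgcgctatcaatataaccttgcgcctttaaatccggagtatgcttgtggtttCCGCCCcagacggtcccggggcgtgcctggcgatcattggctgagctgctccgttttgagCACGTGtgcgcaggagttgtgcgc
Opa1 held 1 NRF1 match, which reads the same on both strands, at bases 59 to 50 before the start, and 3 SP1 matches. NRF1 is an activator of many nuclear genes for mitochondrial proteins. Mfn2 held a single SP1 match, and Mief2 held 2 SP1 matches and 1 E-box at bases 24 to 19. Over the 9 genes with such a window, SP1 letters were in 9, ETS letters in 3 (Fis1, Mfn1 and Mief1), NRF1 letters in 2 (Opa1 and Oma1), YY1 letters in 1 (Mfn1), the E-box in 1 and CRE letters in 0, and no matches of different motifs overlapped. Among 32851 windows of the same length, 32.7% held SP1, 2.88% ETS, 3.74% NRF1, 0.642% YY1, 6.02% the E-box and 1.55% CRE letters. None of the 3 genes with ETS letters was called, and of the 2 with NRF1 letters Opa1 was called and Oma1 was not. SP1 letters were in called and uncalled genes alike. So few genes cannot link letters to calls. A match of letters is not a binding site, and binding was not analysed here.

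A wider list of 52 genes that act on mitochondrial shape was read from the same fit. It holds partners of fission, ubiquitin and SUMO enzymes, kinases and phosphatases of DRP1, partners of fusion, proteases and scaffolds around OPA1, cristae organisers and transport adaptors. Of the 48 genes that passed the filter, 7 were lower and 0 were higher in limma at the thresholds, where 9.03% of all tested genes were lower and 1.64% higher. An unadjusted p under 0.05 was found for 24 of the 48, against 39.4% of all tested genes. With 1 sample left out, between 1 (without KO 3) and 5 (without WT 8) of the list were lower. With median-of-ratios scaling, and with voom, 1 gene, Inf2, was higher. Groups did not overlap for 22 genes that were lower and 5 that were higher in KO cells, against 29.9% and 13.3% of all tested genes. The median log2 fold change was -0.16, with 34 genes negative and 14 positive, against 57.4% negative among all tested genes. The remaining 4 genes of the list were under 1 TPM in both groups and were not tested.

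Miga1, which encodes a mitoguardin that promotes fusion of the outer membrane, fell most among them. It was at 6.24, 5.21 and 4.55 TPM in WT 4, 5 and 8 and at 1.65, 2.30 and 1.93 TPM in KO 3, 7 and 10, with a log2 fold change of -1.10 (SE 0.163, limma adjusted p = 0.00138). No KO sample came near the lowest WT sample. Without KO 3 the adjusted p of Miga1 was 0.00577 and the call was lost. Its paralog Miga2, named after its value was seen, was not called, with 10.7 ± 0.741 TPM in WT and 9.53 ± 1.29 TPM in KO cells and overlapping groups.

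Stx17, a SNARE known from autophagosome fusion that also binds DRP1 at contacts with the endoplasmic reticulum, went from 13.5 ± 1.125 to 6.21 ± 0.958 TPM, a log2 fold change of -1.01 (SE 0.134, limma adjusted p = 0.000803). This fall was as large as that of Opa1 and was called with any 1 sample left out, though not with no filter on low values (adjusted p = 0.00643), where none of the 7 was. Mul1, an outer membrane ligase for ubiquitin and SUMO that acts on DRP1 and MFN2, went from 15.75 ± 0.9752 to 8.82 ± 1.09 TPM, a log2 fold change of -0.77 (SE 0.122, limma adjusted p = 0.00185). Fkbp8, an outer membrane protein with a role in mitophagy and fragmentation, went from 59.9 ± 2.88 to 40.4 ± 1.81 TPM, and its log2 fold change of -0.56 (limma adjusted p = 0.00256) lay inside the fold threshold, at -0.45, with median-of-ratios scaling.

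Of 8 tested genes of the OPA1 group 1 was called lower, and of 9 cristae genes 2 were, where 9.03% of all tested genes were lower. Stoml2, a scaffold that stabilises the long forms of OPA1, went from 36.7 ± 2.84 to 22.8 ± 2.53 TPM (log2 fold change -0.67, limma adjusted p = 0.00280). Samm50 and Mtx1 encode parts of the outer membrane sorting machinery that links to the cristae organising complex MICOS. Samm50 went from 25.5 ± 1.51 to 15.2 ± 2.28 TPM (log2 fold change -0.72, limma adjusted p = 0.00309) and Mtx1 from 11.02 ± 1.51 to 5.72 ± 0.619 TPM (log2 fold change -0.84, limma adjusted p = 0.00231). Exons of 2 of these genes overlap genes on the other strand, by 21.2% of exon length with Gm43737 and 8.87% with Thbs3 for Mtx1 and by 16.6% with Gm26643 for Stoml2, so part of their reads may not be their own. With 1 sample left out, the adjusted p was 0.00543 to 0.011 for Samm50 and 0.00513 to 0.00977 for Stoml2, and both calls were lost with any of the 6. Over the same fits it was 0.00333 to 0.0106 for Mtx1, whose call held only without WT 8. For Mul1 it was 0.00328 to 0.00797 (call lost without WT 4, WT 5, KO 3 or KO 10) and for Fkbp8 0.00453 to 0.017 (call held only without WT 4). With no variance trend the calls of Samm50 (0.00732), Stoml2 (0.00714) and Fkbp8 (0.00727) were lost.

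**Figure D5:**
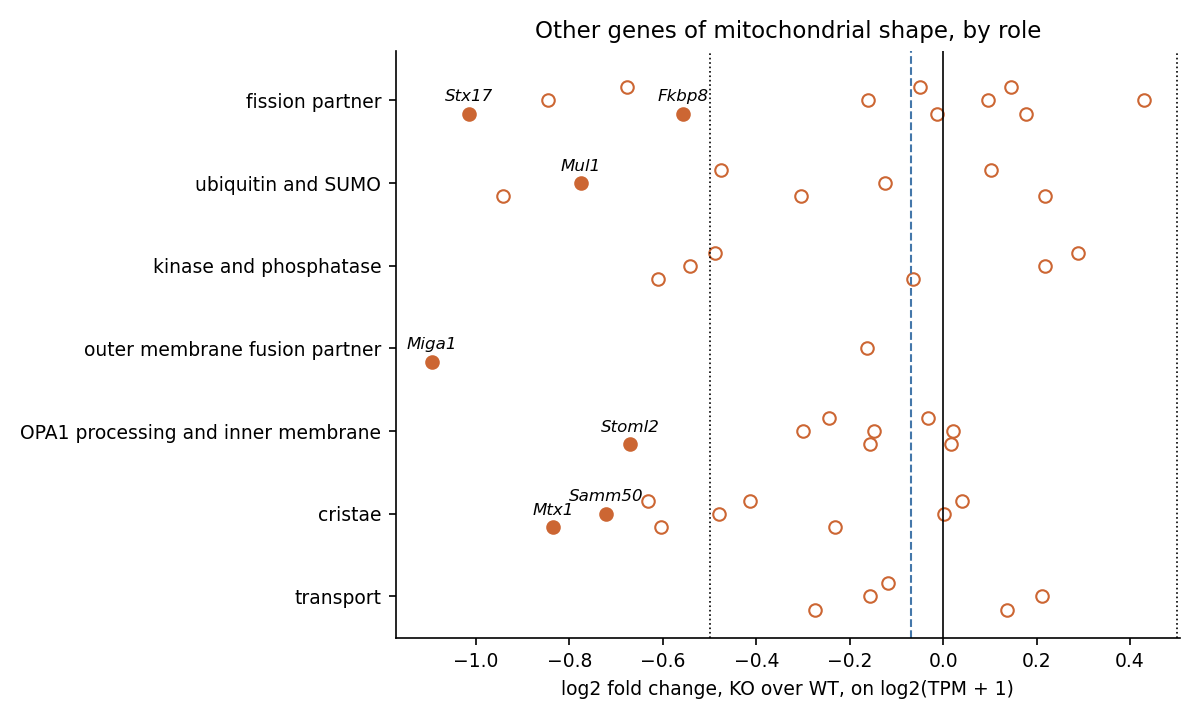
Log2 fold change of KO over WT (x axis, on log2(TPM + 1)) of the 48 tested genes of mitochondrial shape, grouped by role (y axis), with 1 point per gene and small vertical shifts only to separate points. Filled and named points were called lower, dotted lines mark the fold thresholds and the dashed line the median of all tested genes at -0.07. The called genes are spread over 5 of the 7 roles, and no point passes the upper threshold.

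Cristae genes had the lowest median of the larger role groups, at -0.48 over 9 genes, with 2 called and 6 whose KO samples were all below the WT samples, against 9.03% and 29.9% of all tested genes. Besides Samm50 and Mtx1 these were the MICOS subunits Chchd3 (log2 fold change -0.60, limma adjusted p = 0.00803), Chchd6 (-0.63, 0.0210), Apool (-0.48, 0.0328) and Apoo (-0.41, 0.0341), none of which passed the thresholds. Chchd3 passed them with median-of-ratios scaling (adjusted p = 0.00466), without Gm23935 (0.00246), with voom (0.00161) and among genes of at least 10 TPM (0.000261). Groups overlapped for the other 3 cristae genes, and 2 of the 9 had positive fold changes. Among these 3 the central MICOS subunit, Immt, was at 31.8 ± 3.32 TPM in WT and 31.8 ± 2.32 TPM in KO cells (named after its value was seen). Proteases that process OPA1 beside OMA1 had small differences: Yme1l1, Afg3l2 and Spg7, named after their values were seen, had log2 fold changes between -0.03 and 0.02 with overlapping groups. Parl, of the same role group and also named after its value was seen, had -0.16 (limma adjusted p = 0.249). Every KO sample of Parl was below every WT sample.

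Other genes of the list without overlap between groups were not called. Pink1, the kinase that marks damaged mitochondria, was at 11.8, 9.98 and 8.40 TPM in the WT samples and 3.55, 6.22 and 4.69 TPM in the KO samples. Its log2 fold change of -0.94 came with a limma adjusted p of 0.00536, just outside the threshold, and passed it with median-of-ratios scaling (0.00352) and without Gm23935 (0.00338). Mtfr2, a relative of Mtfr1, had a log2 fold change of -0.85 (limma adjusted p = 0.00876), and Mtfp1, an inner membrane fission protein, had -0.68 (0.0238) at a level of 1.64 TPM in WT cells and 7 to 26 reads per sample. The fold change of Mtfp1 was -1.22 with a pseudocount of 0.1 (limma adjusted p = 0.0286) and -1.18 with voom (0.00982). Mtfr2 passed the thresholds with median-of-ratios scaling (adjusted p = 0.00488) and with voom (0.00328), and Mtfp1 with no variance trend (0.00437). The kinases Cdk1, Cdk5 and Prkaca, which phosphorylate DRP1, had -0.61 (0.00752), -0.54 (0.00772) and -0.49 (0.00687). Of these, Cdk1 passed the thresholds with median-of-ratios scaling (0.00117), without Gm23935 (0.00138), with voom (0.000263) and among genes of at least 10 TPM (0.000235), and Cdk5 without Gm23935 (0.00197) and among genes of at least 10 TPM (0.000913). Usp30, a deubiquitinase of the outer membrane, had -0.48 (0.0261) and Senp3, which removes SUMO from DRP1, had -0.30 (0.0578).

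Inf2, a formin that builds actin at sites of division, lay in the opposite direction. It was at 104.1, 99.8 and 94.9 TPM in WT 4, 5 and 8 and at 122.9, 144.5 and 137 TPM in KO 3, 7 and 10, and all KO samples were above all WT samples. The log2 fold change of 0.43 (SE 0.0986, limma adjusted p = 0.0108) was not called in TPM and was called with median-of-ratios scaling (0.53, adjusted p = 0.000383).

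The amount of mitochondrial transcripts was measured beside these genes. Of 11 genes used as measures of mitochondrial content (among them import, porin and citrate synthase genes), 0 were called by limma in either direction, against 10.7% of all tested genes, with 1 at an unadjusted p under 0.05 (Tfam, against 39.4%), 2 with every KO sample below every WT sample (Tomm40 and Tfam, against 29.9%), and a median log2 fold change of -0.03. So short a list cannot be set apart from the first share. In the list 1 gene was called lower with median-of-ratios scaling, without Gm23935, with voom and at a mean of at least 10 TPM. Their summed level was 2011 to 2495 TPM in WT and 1942 to 2292 TPM in KO samples. Of the 13 mitochondrially encoded protein genes, 0 were called by limma, 0 had an unadjusted p under 0.05 and 1 had every KO sample below every WT sample, against the same 10.7%, 39.4% and 29.9% of all tested genes, and their summed level was 57330 to 73880 TPM in WT and 56130 to 65420 TPM in KO samples. In both lists the ranges of the groups overlapped.

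Some genes of the marker lists for growth and for macrophages were called. Of 12 proliferation genes, 4 were lower in KO cells (Mki67, Ccnb1, Ccna2 and Birc5; 0 with no filter, with no variance trend or without WT 5, 1 without WT 4, KO 3 or KO 7, and 7 among genes of at least 10 TPM) and all 12 had negative fold changes (9.03% of all tested genes were called lower and 57.4% were negative), with a median of -0.59 and a summed level of 700.7 to 842.6 TPM in WT and 457.9 to 612.9 TPM in KO samples. Of 10 tested macrophage markers, 2 (Lyz2 and C1qc) were higher in KO cells and 9 had KO samples all above the WT samples (1.64% and 13.3% of all tested genes), with a summed level of the 11 listed genes of 46.8 to 56.0 TPM in WT and 98.3 to 191 TPM in KO samples. Ptprc, also on this list, was under 1 TPM in every sample, and none of the 11 was at 0 in all samples. The part of either in the values of the fission and fusion genes was not tested. In these bulk samples, fewer cells of a type and less RNA per cell cannot be told apart.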

How the data were processed

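RNA from 6 cultures of MEFs (3 WT and 3 KO by their titles, 2 μg RNA each) was sequenced. The methods of the study name STAR, mm10 and DESeq2, and the submitters' processing notes name Bowtie 0.12.2 and mm10; the counting program and use of strand are not given in the sources used here. The authors deposited TPM per gene, 1 column per sample, together with a log2 fold change and an adjusted p-value of their own comparison, which were not used. Because the unit is TPM, DESeq2 and edgeR were not run.

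Genes were tested when the mean of WT or of KO reached 1 TPM. The test was limma 3.58.1 (R 4.3.3) applied to log2(TPM + 1), with a variance trend, no covariate and Benjamini-Hochberg adjustment. Fold changes on this scale understate changes of low genes. Calls needed an adjusted p under 0.005 and a log2 fold change past 0.5. The fit was tested on simulated data. Whole reads were recovered from TPM and exon length (100% of the 13075 to 14313 values checked per sample were whole within 0.05) and served to describe depth and for voom. All 26898 gene IDs matched GENCODE M21 (mm10).

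The members and lists were chosen with earlier results of these data known. Named are all 10 members, Kansl1, called genes of the lists, and genes of the wider list whose groups did not overlap with a log2 fold change of at least 0.3 in size. Outside this rule, Miga2, Immt, Yme1l1, Afg3l2, Spg7 and Parl of the wider list were named after their values were seen. Promoters come from RefSeq, with a window for 9 of the 10 genes. Alternatives were other filters, pseudocounts, thresholds and scalings, no variance trend and leaving out each sample.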

Additional observations from a re-analysis of the deposited data

How the results depend on the processing

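Opa1 was called lower in every alternative run, with an adjusted p of 1.44e-07 to 0.00465 over all 6 samples and 0.00125 to 0.00237 with 1 sample left out, and Kansl1 likewise. With no filter on low values the counts of lower and higher genes went from 1337 and 242 to 286 and 55 over all genes, from 3 to 1 lower for the fission and fusion genes and from 7 to 0 lower for the wider list; more genes were then tested. With no variance trend 1 fission or fusion gene was lower. An adjusted p under 0.05 gave 2453 and 694 genes, and 14 lower in the wider list. Median-of-ratios scaling gave 473 higher genes over all and 1 in the wider list, voom (added after the data were seen) 642 and 1, and leaving out Gm23935 11 lower in the wider list. With 1 sample left out, 617 (without WT 5) to 938 genes were lower and 84 (without KO 7) to 252 higher over all, 1 fission or fusion gene was lower in each case (Opa1), and 1 (without KO 3) to 5 of the wider list were lower. The log2 fold change of Mief1 was 0.091 with median-of-ratios scaling, 0.010 without Gm23935, 0.091 with voom and -0.040 to 0.026 with 1 sample left out. That of Mtfr1 was 0.013 with median-of-ratios scaling, -0.073 without Gm23935, 0.015 with voom and -0.17 to 0.0034 with 1 sample left out. The cause of these changes was not tested where none is named. Depth limits Mief2 and Oma1 most among the 10 genes (as few as 110 and 148 reads in a sample) and, in the wider list, Mtfp1, Mtfr2, Chchd6 and Pink1 (as few as 7, 44, 51 and 69). No paired analysis was possible because the groups share no replicate number (4, 5 and 8 against 3, 7 and 10).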
